A study of Mus musculus with 32 samples.

Results

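Chemokines are small secreted proteins that direct the movement of leukocytes through receptors on the surface of the responding cell. Microglia, the resident macrophages of the brain and spinal cord, make a characteristic set of them when activated. The set followed here held 10 genes, *Ccl2*, *Ccl3*, *Ccl4*, *Ccl5*, *Ccl6*, *Ccl9*, *Ccl12*, *Cxcl10*, *Cxcl16* and *Cxcl2*, chosen by symbol from the 74021 genes listed in the LAG-3 sort and spinal cord tables and the 74016 genes of the stage table. Each of the 10 had a single row in each table. Of them, 9 passed the filter on low counts in each table, and *Cxcl2* passed it in none, so *Cxcl2* is given by its counts and has no test.

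The mice were a model of amyotrophic lateral sclerosis, a disease of motor neurons. SOD1G93A mice carry a human mutant SOD1 transgene, and LAG-3 is an inhibitory immune checkpoint receptor encoded by *Lag3*. The LAG-3 sort experiment held 4 libraries of microglia from WT mice, which lack the transgene, and 5 libraries each of SOD1G93A microglia of the LAG-3-low and the LAG-3-high gate, separated by the fluorescence of a LAG-3 antibody. The study's methods give P140, postnatal day 140, for the SOD1G93A mice of this sort, and no age of the WT mice in the sources used here. The stage experiment held 3 libraries of microglia from SOD1G93A/LAG-3+/+ mice, with intact *Lag3*, and from SOD1G93A/LAG-3-/- mice, in each case at P120 and at P140. The spinal cord experiment held 3 libraries of lumbar cord from each of the same genotypes at P140. All groups except WT carry the SOD1G93A transgene. The LAG-3-/- mice carry a disrupted *Lag3* in every cell, so a difference between genotypes is not particular to microglia. Microglia were CD11b+/CD45int cells sorted from lumbar cord. Each group held libraries of both sexes, by the study's list of samples. Sex was not a term in the fits, and its part in the differences between groups was not tested. How many animals went into a library is not given in the sources used here, so p-values measure the spread between libraries.

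Library totals ranged from 9403475 to 49512632 estimated counts. Levels are given as CPM, counts per 1000000 counts of a library after TMM scaling, a correction of library size that assumes most genes do not differ. *Lag3* checked the labels. It stood at 34.7 to 57.7 CPM in LAG-3-low and at 146 to 195 CPM in LAG-3-high libraries. In the stage experiment it was at most 0.461 CPM in any LAG-3-/- library against at least 24.4 CPM in LAG-3+/+ libraries. The summed level of 10 genes shared by all microglia, such as the C1q subunits and *Csf1r*, was 26519 to 76674 CPM in the microglia libraries. Neutrophil genes were also present. Their summed level over 15 markers was 6355 to 70471 CPM in WT, 23599 to 67770 CPM in LAG-3-low and 483 to 664 CPM in LAG-3-high libraries, and 321 to 5177 CPM over the 12 stage libraries. Genes of border macrophages and monocytes moved the same way in the sort, with sums over 12 markers of 182 to 2718 CPM in WT, 1666 to 4649 CPM in LAG-3-low and 84.6 to 154 CPM in LAG-3-high libraries, and 4 of 10 tested were called lower in LAG-3-high relative to LAG-3-low. The part of these other transcripts in the sort comparisons was not tested.

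The genes other than *Cxcl16* lie in chemokine clusters of the GRCm39 genome. On chromosome 11, *Ccl2* (chr11:81926397-81928279, plus strand) and *Ccl12* (chr11:81992645-81994466, plus strand), both ligands of the monocyte receptor CCR2, stand together. The next cluster along the chromosome holds *Ccl5* (chr11:83416602-83425942, minus strand), *Ccl9* (chr11:83463745-83473161, minus strand), *Ccl6* (chr11:83478708-83483913, minus strand), *Ccl3* (chr11:83538670-83540191, minus strand) and *Ccl4* (chr11:83553383-83555509, plus strand). CCL3, CCL4 and CCL5 attract T cells and monocytes, and CCL6 and CCL9 act through CCR1. *Cxcl16* (chr11:70344517-70352620, minus strand) lies apart from these clusters on the same chromosome and encodes a membrane-anchored ligand of CXCR6. *Cxcl2* (chr5:91051730-91053797, plus strand), which attracts neutrophils through CXCR2, and *Cxcl10* (chr5:92494497-92496748, minus strand), an interferon-induced ligand of CXCR3, lie on chromosome 5.

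The sequence just before the start site was read for each gene. The 250 bases before the start of the canonical GENCODE transcript were searched on both strands for 3 motifs. The NF-kB consensus, a site of the transcription factors that switch on inflammatory genes, was matched in 4 of the 10 genes (*Ccl5*, *Ccl9*, *Cxcl10* and *Cxcl2*) and in 4.23% of 21770 protein-coding promoters. Among the genes called higher with stage in LAG-3+/+ microglia, *Ccl5* and *Ccl9* held this match. *Ccl2*, *Ccl3*, *Ccl4*, *Ccl6*, *Ccl12* and *Cxcl16*, also called higher, did not. The part of the motifs in the stage changes was not tested. The interferon-response letters GAAA, any 2 bases and GAAA again were matched in 1 of the 10, *Cxcl10*, and in 3.32% of all promoters. The AP-1 letters TGANTCA were matched in *Ccl9* and *Cxcl10*, and in 6.17% of all promoters. *Cxcl10* was the gene with all 3 motifs. Those of *Cxcl10*, *Ccl5* and *Ccl9* are printed because they hold the matches among the tested genes, and that of *Ccl2* because it held none while its transcript was among those that differed between genotypes at P140. Capitals mark the matches, and each sequence reads 5′ to 3′ toward the start site, from GRCm39 at chr5:92496749-92496998 (minus strand), chr11:83421346-83421595 (minus strand), chr11:83469468-83469717 (minus strand) and chr11:81926147-81926396 (plus strand).
Cxcl10: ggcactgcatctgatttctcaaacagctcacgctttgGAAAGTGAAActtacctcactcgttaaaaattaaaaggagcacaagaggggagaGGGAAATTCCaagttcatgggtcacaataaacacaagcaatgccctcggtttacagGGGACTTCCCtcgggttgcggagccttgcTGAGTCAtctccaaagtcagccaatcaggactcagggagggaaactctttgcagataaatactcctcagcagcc
Ccl5: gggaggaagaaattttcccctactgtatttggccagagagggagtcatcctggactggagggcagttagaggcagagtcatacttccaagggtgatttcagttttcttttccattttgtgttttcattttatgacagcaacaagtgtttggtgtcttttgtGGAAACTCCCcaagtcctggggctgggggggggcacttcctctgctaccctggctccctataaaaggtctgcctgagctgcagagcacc
Ccl9: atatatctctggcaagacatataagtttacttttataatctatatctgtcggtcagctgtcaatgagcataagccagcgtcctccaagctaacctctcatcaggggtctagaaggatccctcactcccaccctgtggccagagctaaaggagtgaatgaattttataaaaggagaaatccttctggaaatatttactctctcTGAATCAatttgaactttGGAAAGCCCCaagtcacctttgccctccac
Ccl2: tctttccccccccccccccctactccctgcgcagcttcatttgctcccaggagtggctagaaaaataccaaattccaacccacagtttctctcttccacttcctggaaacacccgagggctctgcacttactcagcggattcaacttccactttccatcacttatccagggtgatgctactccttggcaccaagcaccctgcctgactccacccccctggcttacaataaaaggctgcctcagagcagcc
A match is a string of letters and not a tested binding site.

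The levels differed widely between the 10 genes. To compare genes, CPM were divided by the length of the canonical transcript. On this scale of CPM per kb, *Ccl6* had the highest mean in P120 LAG-3+/+ microglia, 662 ± 17.9 CPM per kb (SD, n = 3), with *Ccl4* next at 618 ± 163, a difference within the spread of *Ccl4*. *Ccl3* followed at 385 ± 31.6, *Ccl12* at 234 ± 43.5, *Ccl9* at 103 ± 14.97, *Cxcl16* at 89.5 ± 1.17 and *Ccl2* at 52.9 ± 22.8 CPM per kb. *Ccl9* and *Cxcl16* differed by less than the spread of *Ccl9*. *Ccl5* at 9.39 ± 6.47 and *Cxcl10* at 2.14 ± 3.61 CPM per kb were the lowest of the tested genes. *Ccl6*, *Ccl4*, *Ccl3* and *Ccl12* were the leading 4 genes in all 7 microglia groups.

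Between P120 and P140, the chemokines rose together in LAG-3+/+ microglia. Of the 9 tested, 8 were called higher at P140 at an adjusted p under 0.1 (edgeR's quasi-likelihood test, Benjamini-Hochberg adjustment over 18669 genes), and *Cxcl10* was not. Over all genes tested, 11.9% were called higher and 15.5% lower. The summed level of the 10 genes was 2493, 2399 and 2591 CPM in the P120 libraries and 6253, 8145 and 6361 CPM in the P140 libraries. The 9 log2 fold changes ran from 1.27 to 4.02 with a median of 1.48, beside a median of -0.22 over all genes. Without TMM scaling the median of all genes was -0.70, the calls over all genes went from 2219 higher and 2899 lower to 971 higher and 4120 lower, and 7 chemokines were called higher, *Ccl4* no longer among them.

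The CCR2 ligands were among the genes with the larger rises. *Ccl2* stood at 27.5, 38.1 and 63.5 CPM at P120 and at 234, 61.6 and 223 CPM at P140 in LAG-3+/+ microglia. The P140 library with 61.6 CPM lay below the highest P120 library, so the groups overlapped. The log2 fold change of *Ccl2* was 2.01 ± 0.46 (SE), with an adjusted p of 0.0140 by edgeR. *Ccl12* stood at 209, 208 and 148 CPM at P120 and at 1178, 558 and 471 CPM at P140, with no overlap, a log2 fold change of 1.97 ± 0.45 and an adjusted p of 0.0134.

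*Ccl3*, *Ccl4* and *Ccl5* rose as well. *Ccl3* stood at 277, 294 and 325 CPM at P120 and at 771, 913 and 731 CPM at P140, a log2 fold change of 1.43 ± 0.39 with an adjusted p of 0.0266 by edgeR. *Ccl4* stood at 460, 299 and 515 CPM at P120 and at 902, 1313 and 892 CPM at P140, a log2 fold change of 1.29 ± 0.35 with an adjusted p of 0.0265. For both, every P140 library was above every P120 library. *Ccl5*, whose product attracts T cells and monocytes, was low at P120, at 5.01, 1.57 and 8.49 CPM, and stood at 90.7, 10.9 and 27.9 CPM at P140. Its log2 fold change was 3.10 ± 0.95 with an adjusted p of 0.0420, and 1.94 with an adjusted p of 0.150 without the first P140 library, which held 90.7 CPM. It also lost its call without the first P120 library (adjusted p = 0.121) or the second (adjusted p = 0.132), and *Ccl4* lost its call without the second P120 library (adjusted p = 0.103).

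The CCR1 ligands and *Cxcl16* rose too. *Ccl6* stood at 966, 924 and 971 CPM at P120 and at 1756, 3724 and 2513 CPM at P140, a log2 fold change of 1.48 ± 0.34 with an adjusted p of 0.0148 by edgeR. *Ccl9* stood at 278, 362 and 293 CPM and then at 654, 915 and 680 CPM, a log2 fold change of 1.27 ± 0.30 with an adjusted p of 0.0153. *Cxcl16* stood at 265, 272 and 267 CPM and then at 583, 649 and 717 CPM. Its log2 fold change of 1.28 ± 0.27 had the smallest adjusted p of the 9 genes, 0.0101. None of these 3 genes overlapped between the stages.

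*Cxcl10* was uneven within both stages. It held 6.94, 0.111 and 0.0256 CPM at P120 and 85.2, 0 and 29.8 CPM at P140 in LAG-3+/+ microglia, so that the second P140 library lay below all P120 libraries. The log2 fold change was 4.02 ± 2.15 with an adjusted p of 0.217 by edgeR, and 0.0787 without the first P120 library. *Cxcl2* was at 0 counts in all LAG-3+/+ libraries except the third P140 library, which held 1995 counts, or 76.6 CPM.

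**Figure D1:**
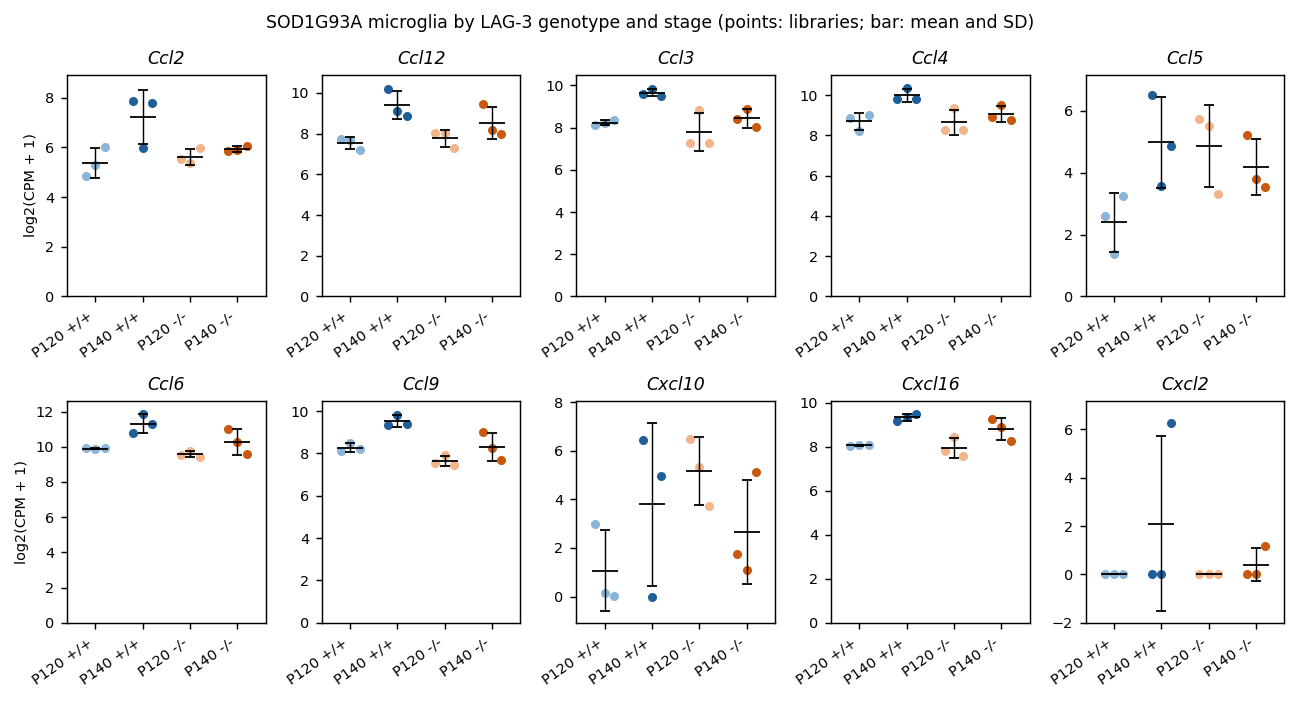
Levels of the 10 genes in the 12 stage libraries, as log2(CPM + 1) on the vertical axis, by genotype and stage on the horizontal axis. Points are libraries and bars give the mean and SD of 3 libraries. For *Cxcl16* the P120 LAG-3+/+ libraries lie at 265 to 272 CPM and the P140 LAG-3+/+ libraries at 583 to 717 CPM.

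Other properties of the libraries moved with stage in LAG-3+/+ mice. The P140 LAG-3+/+ libraries had counts for 18796 to 20409 genes, against 24051 to 24850 genes in the P120 LAG-3+/+ libraries. Fold changes followed transcript length. With all genes split by transcript length into 5 classes of equal size, from the shortest, the median log2 fold changes of all genes were 0.07, 0.41, 0.23, -0.62 and -1.05. The chemokine transcripts are short, from 535 nt in *Ccl5* to 3011 nt in *Ccl9*, and lie in the 3 shorter classes. With offsets for transcript length and GC content, 8 of 9 were still called higher, with log2 fold changes from 0.87 in *Ccl6* to 3.11 in *Ccl5*, and *Cxcl10* was not called. The summed level of the 10 genes shared by all microglia was 35268 to 40356 CPM at P120 and 61391 to 76674 CPM at P140. Of these 10 genes, 7 were called higher and 3 lower, with *Itgam* (log2 fold change -1.62, adjusted p = 0.00547 by edgeR) and *Csf1r* (-1.84, adjusted p = 0.00552), a surface integrin and the receptor for CSF1, having the smallest adjusted p. The part of these properties in the values of single genes was otherwise not tested. Of 13 tested neutrophil markers, 0 were called higher and 1 lower.

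Related gene groups were counted in the same fit. Of 11 tested genes among 25 other chemokines, 2 were called higher and 1 lower, with a median log2 fold change of 0.67. *Ccl22*, whose product attracts regulatory T cells through CCR4, was at 0.247 to 3.63 CPM at P120 and at 0 counts at P140 (adjusted p = 0.0291 by edgeR). *Cxcl9*, a CXCR3 ligand like *Cxcl10*, was at 0 counts at P120 and at 0.0568 to 7.87 CPM at P140 (adjusted p = 0.0602). Of 12 tested chemokine receptors, 2 were called higher and 0 lower. *Ccr1*, which binds the products of *Ccl3*, *Ccl5*, *Ccl6* and *Ccl9*, stood at 5.26 to 14.9 CPM at P120 and at 10.9 to 67.1 CPM at P140, with a log2 fold change of 2.13 ± 0.76 and an adjusted p of 0.0740. *Ccrl2*, a receptor that holds chemerin at the cell surface, had a log2 fold change of 0.99 ± 0.35 with an adjusted p of 0.0725. Of 21 tested NF-kB and cytokine genes, 6 were called higher and 4 lower, with a median of 0.07. The 2 with the smallest adjusted p in that list both fell, *Tnip1*, a brake on NF-kB, with a log2 fold change of -3.75 and an adjusted p of 0.0125, and *Rela*, an NF-kB subunit, with -1.34 and 0.0144. Of 21 interferon-stimulated genes, 7 were called higher and 0 lower, with a median of 1.60. *Usp18*, a negative regulator of interferon signalling, rose with a log2 fold change of 2.76 (adjusted p = 0.0124) and *Bst2*, which tethers viruses at the cell surface, with 1.28 (adjusted p = 0.0218).

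In LAG-3-/- microglia no chemokine gene was called between the stages, and neither was any other gene, with 0% of 18669 genes called higher and 0% lower by edgeR, while 1658 genes had an unadjusted p under 0.05. By DESeq2, 358 genes were called higher and 91 lower, and *Cxcl16* was the 1 chemokine called. The log2 fold changes of the 9 genes ran from -1.91 to 0.88 with a median of 0.50, and 7 were above 0. *Cxcl16* had the smallest adjusted p, with 222, 346 and 192 CPM at P120 and 606, 480 and 310 CPM at P140, a log2 fold change of 0.88 ± 0.26 and an adjusted p of 0.475 by edgeR. *Ccl6* stood at 745, 872 and 692 CPM and then at 2071, 1211 and 755 CPM. *Ccl9* stood at 183, 241 and 177 CPM and then at 509, 302 and 205 CPM. The first P140 LAG-3-/- library was the highest of its group for *Ccl6*, *Ccl9*, *Ccl12*, *Ccl5* and *Cxcl16*, and the libraries of both stages overlapped for all 10 genes. *Ccl2* differed little, at 45.3, 40.1 and 62.2 CPM at P120 and 57.4, 58.1 and 65.5 CPM at P140. *Ccl5* and *Cxcl10* were the 2 genes with a log2 fold change below 0, at -0.83 ± 0.88 and -1.91 ± 1.97.

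The genotypes were compared at each stage. At P120, no chemokine gene was called, beside 0% of all genes called higher and 0.0107% called lower in LAG-3-/- microglia. *Ccl5* stood at 52.2, 44.5 and 8.99 CPM in LAG-3-/- and at 5.01, 1.57 and 8.49 CPM in LAG-3+/+ libraries. Every LAG-3-/- library was above the LAG-3+/+ libraries, the third by a small margin. The log2 fold change was 2.81 ± 0.93, with an unadjusted p of 0.0117 and an adjusted p of 1 by edgeR, and DESeq2 called it. *Cxcl10* also stood higher in every LAG-3-/- library, at 88.4, 39.1 and 12.1 CPM, with a log2 fold change of 4.30 ± 2.18 and an adjusted p of 1. *Ccl6* and *Ccl9* stood lower in every LAG-3-/- library at P120, with log2 fold changes of -0.31 ± 0.34 and -0.63 ± 0.30 and adjusted p of 1 by edgeR. The other tested genes overlapped between the genotypes. The share of all genes whose libraries did not overlap was not counted, here or in the other comparisons. DESeq2 called *Ccl5* at P120 beside 35 genes called higher and 99 lower over all genes. Markers of T and NK cells were low in these libraries. *Cd3e*, *Cd2*, *Trbc2*, *Gzma*, *Gzmb* and *Ncr1* had no count in any of the 4 stage groups, and the summed level of the 14 markers was 0.526 to 0.767 CPM in P120 LAG-3-/- and 2.58 to 4.64 CPM in P120 LAG-3+/+ libraries. Summed neutrophil markers stood at 510 to 633 CPM in P120 LAG-3-/- and at 2269 to 3175 CPM in P120 LAG-3+/+ libraries. Border macrophage and monocyte markers summed to 0.650 to 65.1 CPM and to 85.2 to 319 CPM in the same order. Of the 13 neutrophil and 9 border macrophage and monocyte markers tested, 0 were called. The part of these other transcripts in the chemokine values at P120, *Ccl5* among them, was not tested.

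At P140, all 9 tested genes had log2 fold changes below 0 in LAG-3-/- relative to LAG-3+/+ microglia, from -0.48 to -1.63 with a median of -1.12, and 2 were called lower. Over all genes, 7.22% were called higher and 3% lower, with a median of 0.14. These were 1347 genes higher and 561 lower, against 2046 and 244 without TMM scaling, where the median was 0.47, and 1275 and 837 with DESeq2's size factors. *Ccl9* stood at 509, 302 and 205 CPM in LAG-3-/- and at 654, 915 and 680 CPM in LAG-3+/+ libraries, with no overlap. Its log2 fold change was -1.15 ± 0.30 with an adjusted p of 0.0574 by edgeR. *Ccl2* stood at 57.4, 58.1 and 65.5 CPM in LAG-3-/- and at 234, 61.6 and 223 CPM in LAG-3+/+ libraries, and the second LAG-3+/+ library lay within the LAG-3-/- range. Its log2 fold change was -1.52 ± 0.45 with an adjusted p of 0.0811. *Ccl3* stood at 336, 471 and 259 CPM against 771, 913 and 731 CPM without overlap, and missed the threshold with a log2 fold change of -1.18 ± 0.38 and an adjusted p of 0.1002. *Ccl4* also did not overlap, at 483, 737 and 429 CPM against 902, 1313 and 892 CPM, with a log2 fold change of -0.91 ± 0.34 and an adjusted p of 0.140. *Ccl6* had a log2 fold change of -0.99 ± 0.34 and an adjusted p of 0.115, and *Cxcl16* of -0.48 ± 0.26 and 0.284. This comparison uses the same 3 P140 LAG-3+/+ libraries as the stage comparison in LAG-3+/+ mice, so the 2 sets of values are not independent.

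The calls at P140 rested on few libraries. The value of *Ccl5* went from -1.12 to 0.04 without the first P140 LAG-3+/+ library, while the other 8 genes stayed below 0 in every fit run. The call of *Ccl2* was lost in 11 of the 12 fits that left out 1 library, with adjusted p up to 0.234 by edgeR. It was kept without the second P140 LAG-3+/+ library, with an adjusted p of 0.0403. The call of *Ccl9* was lost without the second or the third P140 library of either genotype, with adjusted p of 0.110 to 0.207. Without the first P140 LAG-3-/- library, the highest of its group for these genes, *Ccl6* (-1.43, adjusted p = 0.0127), *Ccl9* (-1.56, 0.00354) and *Ccl12* (-1.45, 0.0374) were called lower. With DESeq2, 5 chemokine genes were called lower (*Ccl2*, *Ccl3*, *Ccl4*, *Ccl6* and *Ccl9*), beside 2370 genes called higher and 1911 lower over all genes. With length and GC offsets 1 chemokine gene was called lower (*Ccl9*). The medians of all genes in the 5 classes of transcript length, from the shortest, were -0.11, -0.29, -0.13, 0.50 and 0.80 in this comparison. The summed level of the genes shared by all microglia was 61391 to 76674 CPM in LAG-3+/+ and 35841 to 63645 CPM in LAG-3-/- libraries at P140, and 3 of these 10 genes were called higher and 1 lower. Counts were found for 20176, 23794 and 23348 genes in the LAG-3-/- libraries, so that the first, with the highest *Ccl6*, *Ccl9* and *Ccl12* of its group, was within the 18796 to 20409 genes of the LAG-3+/+ libraries. The part of these properties was not tested beyond the offsets for length and GC content. Of 21 interferon-stimulated genes, 0 were called, with a median log2 fold change of -0.64. Of 11 tested genes among the 25 other chemokines, 1 was called higher and 0 lower, with a median of -0.61. That gene was *Ccl22*, at 0 counts in P140 LAG-3+/+ libraries (log2 fold change 10.5, adjusted p = 0.0538 by edgeR). Of 12 tested receptors, 2 were called higher in LAG-3-/- microglia and 0 lower. They were *Ackr3* and *Ccr2*. *Ackr3*, a scavenging receptor of CXCL12, was at 0 counts in LAG-3+/+ and at 1.501 to 3.90 CPM in LAG-3-/- libraries (adjusted p = 0.0557 by edgeR). *Ccr2*, the receptor of CCL2 and CCL12, was at most 0.0830 CPM in LAG-3+/+ and 0.0953 to 36.6 CPM in LAG-3-/- libraries (adjusted p = 0.0854). *Ccr2* is also 1 of the 12 border macrophage and monocyte markers. Their sums at P140 were 111 to 356 CPM in LAG-3+/+ and 52.5 to 527 CPM in LAG-3-/- libraries. The part of these other cells in the *Ccr2* values was not tested.

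**Figure D2:**
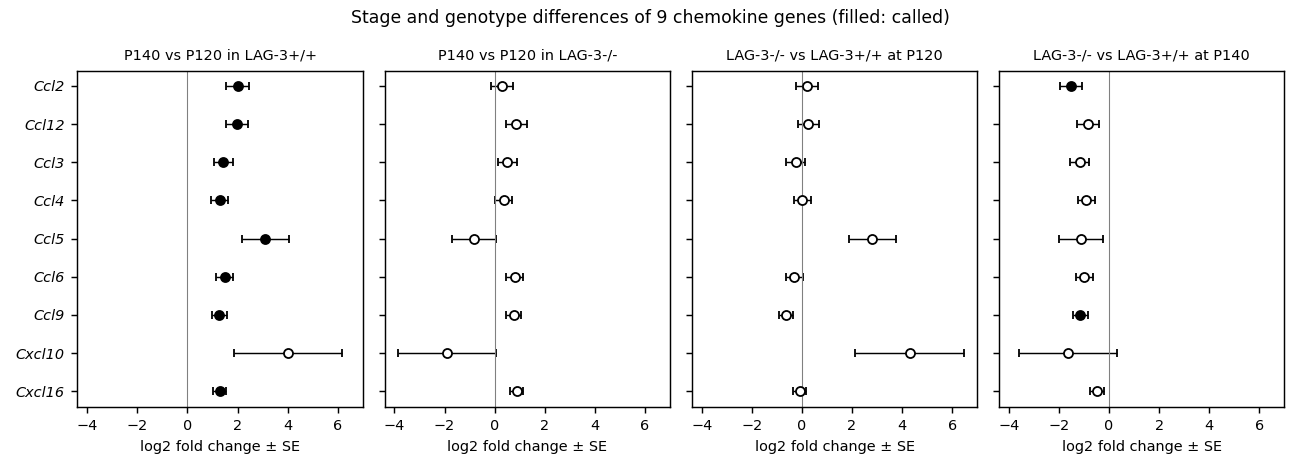
Log2 fold changes with their SE for the 9 tested genes in 4 comparisons of the stage experiment. Filled points were called at an adjusted p under 0.1 and open points were not. The P140 against P120 comparison in LAG-3+/+ microglia has 8 filled points, that in LAG-3-/- microglia 0, and the genotype comparison at P140 has 2, *Ccl2* and *Ccl9*.

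The difference between the stage effects was itself tested as an interaction of genotype and stage. No chemokine gene was called, beside 0.161% of all genes called higher and 0.0107% lower by edgeR. The 9 estimates were all below 0, from -0.40 to -5.93 with a median of -0.94, and 2 of the 9 had an unadjusted p under 0.05. *Ccl5* had an interaction of -3.93 ± 1.28 on the log2 scale with an adjusted p of 0.240, and *Ccl2* of -1.71 ± 0.63 with 0.279. DESeq2 called those 2 genes lower, beside 909 genes called higher and 392 lower over all genes. Without the first P140 LAG-3-/- library, edgeR called *Ccl5* (-4.68, adjusted p = 0.0902) and *Ccl12* (-1.70, adjusted p = 0.0969). The rise of the chemokines in LAG-3+/+ microglia was therefore not shown to differ from the changes in LAG-3-/- microglia by the main test.

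**Figure D3:**
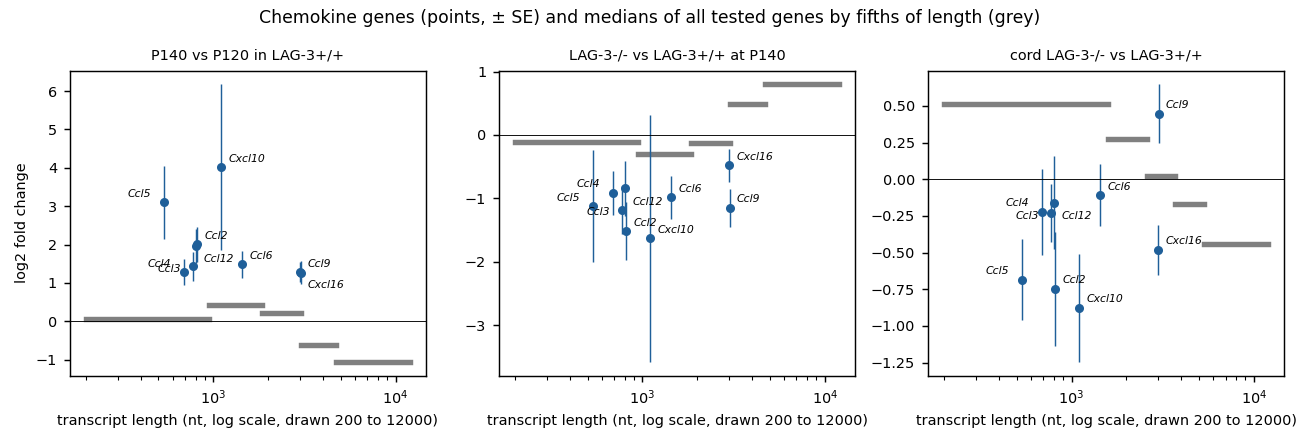
Log2 fold changes of the 9 tested genes with their SE (points) against transcript length in nt on a log axis, with the median of all tested genes in each of 5 length classes (grey bars). In the first panel the chemokines lie at 1.27 or more, above the grey bars of the shorter classes at 0.07, 0.41 and 0.23. In the last panel, the spinal cord, the grey bars run from 0.51 to -0.44.

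The LAG-3 sort asked whether the chemokines differ with the amount of LAG-3 on the microglial surface. *Cxcl16* was the 1 gene of 9 called higher in the LAG-3-high libraries relative to LAG-3-low, at an adjusted p under 0.1 and a log2 fold change above 1, beside 0.818% of 16508 genes called higher and 2.67% lower. Without TMM scaling the median of all genes moved from -0.02 to -0.40 and no chemokine was called, with *Cxcl16* at 0.83 (adjusted p = 0.272 by edgeR). It stood at 516, 490, 507, 496 and 457 CPM in LAG-3-high and at 224, 177, 201, 242 and 224 CPM in LAG-3-low libraries, with no overlap. The log2 fold change was 1.21 ± 0.32 with an adjusted p of 0.0576 by edgeR. The call was lost in each of the 10 fits that left out a LAG-3-high or LAG-3-low library, with adjusted p up to 0.152 and log2 fold changes of 1.15 to 1.25. *Ccl6* was also higher in every LAG-3-high library, at 1120, 1477, 1628, 1107 and 1357 CPM against 663, 1010, 654, 488 and 630 CPM. Its log2 fold change of 0.96 ± 0.26 had an adjusted p of 0.0643 and lay under the minimum fold. With length and GC offsets, *Ccl6* passed it at 1.14 and was called. The summed level of the 10 genes shared by all microglia was also higher, at 47699 to 54178 CPM in LAG-3-high and 26519 to 34630 CPM in LAG-3-low libraries. Of these 10 genes, 4 were called higher and 0 lower, with a median log2 fold change of 0.86. Of 12 genes of disease-associated microglia, 6 were called higher and 0 lower, with a median of 1.44. The part of these shifts in the values of *Cxcl16* and *Ccl6* was not tested.

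The other chemokines overlapped between the sorted populations. *Ccl3* stood at 234 to 464 CPM in LAG-3-high and at 36.9 to 377 CPM in LAG-3-low libraries, and *Ccl4* at 226 to 512 and at 64.0 to 735 CPM. The log2 fold changes of *Ccl3*, *Ccl4* and *Ccl2* were 0.37 ± 1.05, -0.15 ± 1.37 and 0.10 ± 0.90, with adjusted p of 0.978 to 0.997 by edgeR. The SE of *Ccl3* and *Ccl4* exceeded 1 log2 unit, so moderate differences were not detectable. Without TMM scaling *Ccl3* stood at -0.02 and *Ccl2* at -0.29, below 0, and *Ccl4* turned above 0 with length and GC offsets (0.13). *Ccl12* was lower on average in LAG-3-high libraries, with a log2 fold change of -0.52 ± 0.62 and an adjusted p of 0.894. *Ccl5* stood at 23.5, 6.66, 37.1, 32.3 and 13.9 CPM in LAG-3-high and at 5.23, 0.344, 5.93, 3.87 and 19.9 CPM in LAG-3-low libraries, a log2 fold change of 1.68 ± 1.34 with an adjusted p of 0.751. *Cxcl10* ran the other way, at 2.30, 0.533, 0.983, 0 and 0 CPM in LAG-3-high and at 10.2, 1.03, 21.3, 0.870 and 0 CPM in LAG-3-low libraries, a log2 fold change of -3.11 ± 1.70 with an adjusted p of 0.549. *Cxcl2* was found in the first LAG-3-low library with 2080 counts, in the second with 92 counts, in the second LAG-3-high library with 12 counts and in none of the others.

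**Figure D4:**
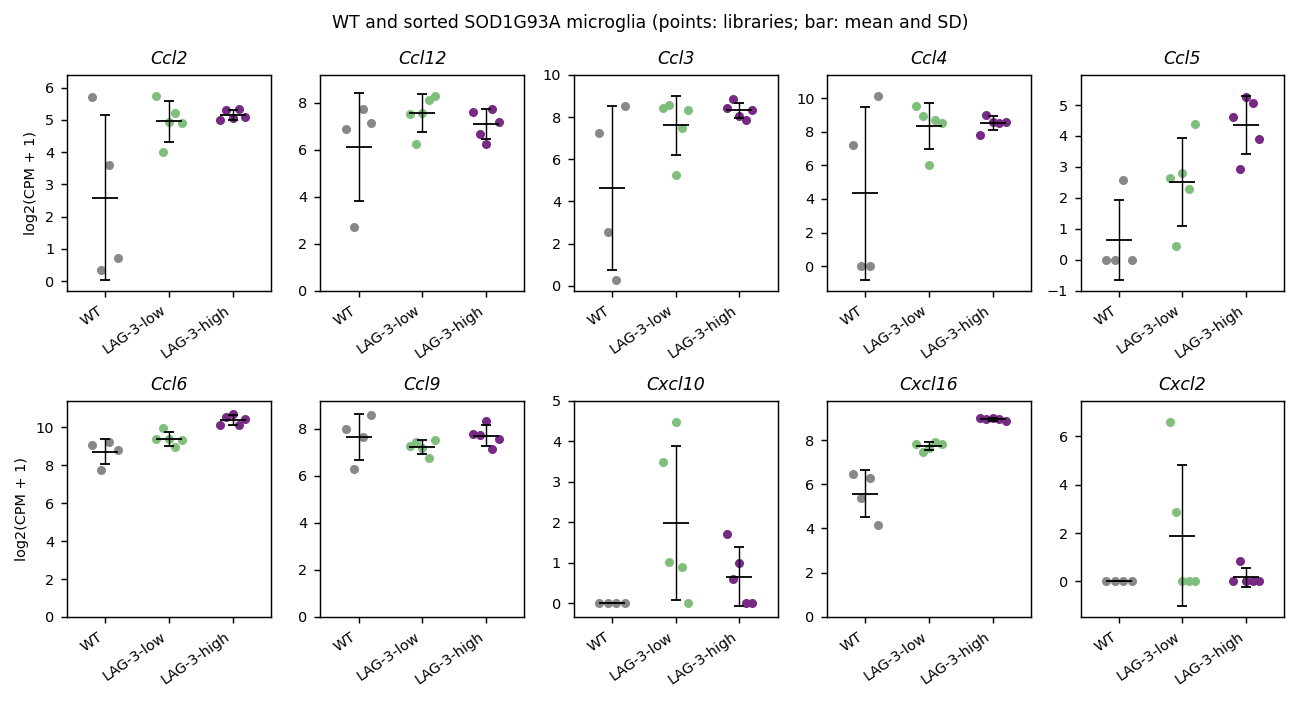
Levels of the 10 genes in the 14 libraries of the LAG-3 sort, as log2(CPM + 1) on the vertical axis. Points are libraries of WT (n = 4), LAG-3-low (n = 5) and LAG-3-high microglia (n = 5), and bars give the mean and SD. *Cxcl16* lies at 16.8 to 86.8 CPM in WT, 177 to 242 CPM in LAG-3-low and 457 to 516 CPM in LAG-3-high libraries.

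Against WT microglia, LAG-3-high microglia had 4 chemokine genes called higher and 0 lower, beside 12.1% of all genes called higher and 14.9% lower, or 2000 and 2464 genes. Without TMM scaling these were 1491 and 3225, and 3 chemokines were called, *Ccl5* no longer among them. LAG-3-low microglia had 2 called higher and 0 lower, beside 10.9% and 11%. *Cxcl16* was called in both. It stood at 86.8, 40.8, 77.7 and 16.8 CPM in WT libraries, below every SOD1G93A library, with log2 fold changes of 3.15 ± 0.37 for LAG-3-high (adjusted p = 7e-05 by edgeR) and 1.94 ± 0.35 for LAG-3-low microglia (adjusted p = 0.00304). With length and GC offsets the LAG-3-low difference fell to 0.78 (adjusted p = 0.109). *Ccl6* stood at 538, 213, 602 and 449 CPM in WT libraries. It was called in LAG-3-high microglia, with a log2 fold change of 1.57 ± 0.28 and an adjusted p of 0.00185, and not in LAG-3-low microglia, with 0.61 ± 0.27 and 0.141.

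*Ccl5* and *Cxcl10* were near or at 0 in WT microglia. *Ccl5* had no counts in 3 WT libraries and 5.01 CPM in the third, with a log2 fold change of 4.16 ± 1.64 in LAG-3-high microglia (adjusted p = 0.0841 by edgeR) and 2.48 ± 1.51 in LAG-3-low microglia (adjusted p = 0.280). The LAG-3-high call was lost in 10 of 14 fits that left out 1 library, with adjusted p up to 0.140. *Cxcl10* had no count in any WT library. Taking 3 counts over the 4 WT libraries as the floor, which covers counting error only, its pooled level was at least 18.1-fold higher in LAG-3-high and at least 160-fold higher in LAG-3-low libraries. Of the counts, 41 of 65 came from the first LAG-3-high library and 520 of 776 from the third LAG-3-low library, and without that library the bounds were 8.68-fold and 69.0-fold. *Cxcl10* was called in both (adjusted p = 0.0834 and 0.0337), and the LAG-3-high call was lost in 8 of 14 fits that left out 1 library, with adjusted p up to 0.151. No count was found in 2 LAG-3-high libraries and 1 LAG-3-low library.

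The WT libraries were uneven for several chemokines. *Ccl3* stood at 153, 4.78, 0.225 and 365 CPM and *Ccl4* at 151, 0, 0 and 1133 CPM in WT, so that the fourth library was above every LAG-3-high library for *Ccl4* and the second and the third were below all of them. *Ccl2* stood at 51.5, 0.261, 11.2 and 0.633 CPM in WT libraries, against 30.6 to 39.2 CPM in LAG-3-high libraries. None of these 3 genes was called in either comparison with WT in the main fit, with SE of 0.97 to 1.46 on the log2 scale. *Ccl2* was called higher in LAG-3-high microglia with length and GC offsets. Without the first WT library it was called higher in both comparisons, at 3.18 in LAG-3-high and 3.13 in LAG-3-low microglia. *Ccl9* stood at 255, 76.6, 201 and 379 CPM in WT, with log2 fold changes of -0.09 ± 0.36 in LAG-3-high and -0.59 ± 0.36 in LAG-3-low microglia. With length and GC offsets it was called lower in both, at -1.32 (adjusted p = 0.0689) and -1.90 (adjusted p = 0.0156), in fits whose medians over all genes were -0.75 and -0.71. The medians of all genes in the shortest of the 5 length classes were -1.06 for LAG-3-high and -0.74 for LAG-3-low against WT.

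Receptors and related genes were counted beside them. In LAG-3-high against WT microglia, 2 of 11 tested chemokine receptors were called higher and 5 lower. Between the sorted populations, 0 of 11 receptors were called higher and 1 lower. That gene was *Cxcr2*, the neutrophil receptor of CXCL2, which stood at 1.27 to 2.33 CPM in LAG-3-high and 20.1 to 73.3 CPM in LAG-3-low libraries, where the neutrophil marker sum was also higher. Of 20 tested NF-kB and cytokine genes and 21 interferon-stimulated genes, 0 were called in either direction between the sorted populations, with medians of 0.03 and 0.18.

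In whole lumbar cord at P140, the chemokines were low. *Ccl6* was the highest at 19.8 to 32.8 CPM over the 6 libraries, and *Ccl2* stood at 0.649 to 2.73 CPM. The summed level of the 10 genes was 102, 71.8 and 106 CPM in LAG-3+/+ and 104, 65.6 and 65.4 CPM in LAG-3-/- libraries. No gene of the 9 tested passed both the adjusted p of 0.1 and the log2 fold change of 1, beside 4.37% of 17702 genes called higher and 3.15% lower in LAG-3-/- cord, or 773 and 558 genes. Without TMM scaling these were 485 and 832, the median of all genes was -0.13, and *Cxcl10* was called lower. In whole tissue, fewer microglia and less RNA per cell cannot be told apart.

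The log2 fold changes in cord were below 0 for 8 of the 9 genes, with a median of -0.23 beside 0.00 over all genes. *Cxcl16* stood at 20.6, 15.3 and 22.9 CPM in LAG-3+/+ and at 16.8, 13.2 and 12.2 CPM in LAG-3-/- libraries, with a log2 fold change of -0.48 ± 0.17 and an adjusted p of 0.0448 by edgeR. *Ccl5* stood at 3.81, 2.15 and 2.76 CPM and at 2.23, 1.497 and 1.75 CPM, with -0.69 ± 0.28 and 0.0712. Both passed the p threshold and not the minimum fold, and both overlapped between the genotypes. *Cxcl10* stood at 17.8, 9.36 and 14.5 CPM in LAG-3+/+ and at 11.9, 4.96 and 6.09 CPM in LAG-3-/- libraries, with -0.88 ± 0.37 and 0.101, and was called without the first LAG-3-/- library at -1.34 or without the second LAG-3+/+ library at -1.10, where *Ccl2* was called as well (-1.02, adjusted p = 0.0556). *Ccl9* alone was above 0, at 9.34, 6.91 and 9.46 CPM in LAG-3+/+ and 15.2, 10.2 and 9.74 CPM in LAG-3-/- libraries, with 0.45 ± 0.20 and 0.1004. Its LAG-3-/- libraries were all higher, whereas in sorted P140 microglia its LAG-3-/- libraries were all lower. The difference between the cord and the microglia was not tested.

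Microglial genes were counted beside the chemokines. The summed level of the genes shared by all microglia was 1708 to 2350 CPM in LAG-3+/+ and 1331 to 2030 CPM in LAG-3-/- cord, and 0 of 10 were called higher and 1 lower. Of 12 genes of disease-associated microglia, 0 were called higher and 4 lower, with a median log2 fold change of -0.66. Summed over 12 markers, border macrophage and monocyte genes stood at 55.6 to 67.5 CPM in LAG-3+/+ and 32.1 to 43.7 CPM in LAG-3-/- cord, without overlap, and 0 of 7 tested were called. The part of these cells in the chemokine values was not tested. Short transcripts stood higher in LAG-3-/- cord, with median log2 fold changes by length class from the shortest of 0.51, 0.27, 0.02, -0.17 and -0.44. With length and GC offsets, 3 chemokine genes were called lower in LAG-3-/- cord, *Ccl5* at -1.28 (adjusted p = 0.00836), *Cxcl10* at -1.29 (0.0393) and *Ccl2* at -1.20 (0.0386), while *Ccl9* stayed above 0 at 0.54. Of 7 tested genes among the other chemokines and 8 chemokine receptors, 0 were called. *Cxcl12*, a chemokine of stromal cells, had the smallest adjusted p of the former, at 41.5 to 46.9 CPM in LAG-3+/+ and 31.8 to 37.0 CPM in LAG-3-/- cord, a log2 fold change of -0.39 with an adjusted p of 0.0127 by edgeR. Of 21 interferon-stimulated genes, 0 were called higher and 3 lower, with a median of -0.60. *Rigi*, a sensor of viral RNA, stood at 13.7 to 18.0 CPM in LAG-3+/+ and 7.59 to 8.31 CPM in LAG-3-/- cord (log2 fold change -1.02, adjusted p = 0.000555). *Rsad2*, an antiviral enzyme, stood at 5.49 to 10.7 CPM and 3.23 to 3.55 CPM (log2 fold change -1.28, adjusted p = 0.00184).

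**Figure D5:**
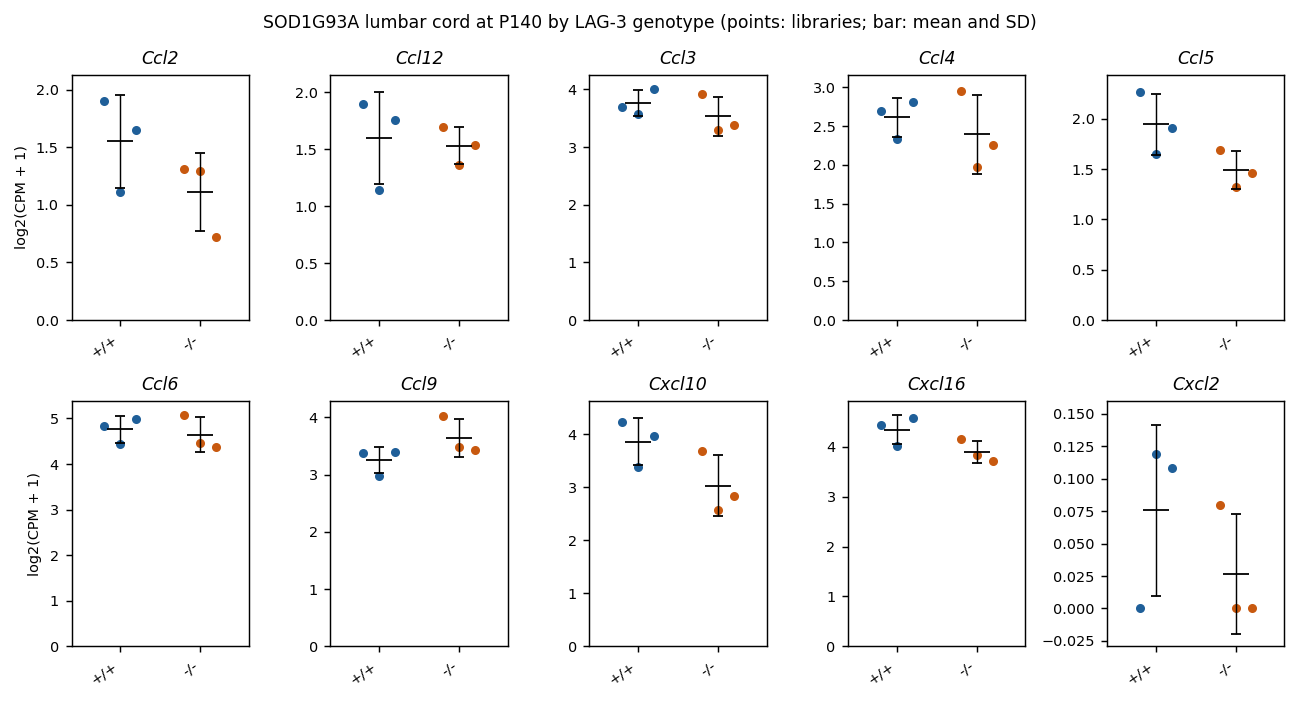
Levels of the 10 genes in the 6 lumbar cord libraries, as log2(CPM + 1) on the vertical axis, by LAG-3 genotype. Points are libraries and bars give the mean and SD of 3 libraries. The genotypes overlap for all genes except *Ccl9*, with 6.91 to 9.46 CPM in LAG-3+/+ and 9.74 to 15.2 CPM in LAG-3-/- cord.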

How the data were processed

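RNA was measured in 26 microglia and 6 lumbar cord libraries. The authors deposited estimated counts per gene, made with Trim Galore 0.6.7, Salmon 1.9.0 and tximport in R 4.2.1 on the mouse genome GRCm39 per the labels and methods, and not normalized. The microglia libraries came from an amplifying SMART-seq kit without strand information and the cord libraries from a stranded kit. The annotation release is not given in the sources used here. The estimated counts were rounded, genes were filtered with filterByExpr (minimum count 10, minimum total 15), and each table was fitted with edgeR 4.0.16 (TMM, robust quasi-likelihood test) in R 4.3.3, with all groups of the table in 1 fit and Benjamini-Hochberg adjustment over all genes tested. A gene was called at an adjusted p under 0.1, and in the sort and cord also at an absolute log2 fold change above 1. Standard errors were derived from the F statistics. Tables were not compared by test. Alternatives were DESeq2 1.42.0, other scalings, filters and thresholds, offsets for transcript length and GC content, a replicate block, and leaving out each library. The scripts were tested on simulated data. The 10 chemokines are named in full, and from each gene list the counts called and up to 2 genes with the smallest adjusted p. The chemokines and lists were chosen with earlier results of these data known. Genomic positions and promoters come from GENCODE on GRCm39.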

Additional observations from a re-analysis of the deposited data

Results flagged for a closer look

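In each group of 4 or 5 libraries, the gap between the most extreme library and its neighbour was set against the range of the group by Dixon's test. Of 28 sets of a chemokine in a group, 5 were set apart by 1 library, where chance would set apart about 1 in 20 if values were normally distributed, which CPM with many libraries at 0 are not. Where all the other libraries are at 0 the gap is the whole range by construction, so 2 of the 5 carry no test. *Cxcl2* was at 95.4 CPM in the first LAG-3-low library, with the next library at 6.33 CPM, and at 0.799 CPM in the second LAG-3-high library, with the others at 0. *Ccl5* was at 19.9 CPM in the fifth LAG-3-low library, with the next at 5.93 CPM, and at 5.01 CPM in the third WT library, with the others at 0. *Ccl4* was at 1133 CPM in the fourth WT library, with the next at 151 CPM.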

How the results depend on the processing

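No fold change of a called chemokine turned its direction under any alternative run. Outside the fits that left out a library, 120 values kept and 15 lost their call. In the fits that left out a library, 171 values kept and 47 lost their call. At an adjusted p under 0.05, 0 chemokines were called between the sorted populations, 2 in LAG-3-high against WT and 0 between genotypes at P140. Without TMM scaling the count was 0 between the sorted populations, 1 between genotypes at P140 and 1 in the cord, and with DESeq2's size factors 4 between genotypes at P140. With length and GC offsets it was 2 between the sorted populations, 1 between genotypes at P140 and 3 in the cord. With only the 2 groups compared in the fit it was 2 for LAG-3-high against WT and 0 between genotypes at P140. DESeq2 called 1 chemokine for stage in LAG-3-/- microglia, 1 between genotypes at P120, 5 between genotypes at P140 and 2 for the interaction. It also called more genes over all than edgeR. In the same order these were 358 higher and 91 lower, 35 and 99, 2370 and 1911, and 909 and 392. The causes were not tested. Leaving out 1 library gave 0 to 1 called between the sorted populations, 2 to 4 for each sorted population against WT, 6 to 9 for stage in LAG-3+/+ and 0 to 0 in LAG-3-/- microglia, 0 to 0 between genotypes at P120, 0 to 3 at P140, 0 to 2 for the interaction and 0 to 2 in the cord.

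Same-numbered libraries deviated together little (median correlation of deviations 0.0195 in the sort, 0.00493 in the stage and 0.0106 in the cord table). The lowest value, -0.119, was in the stage table. For libraries of different number the medians were -0.0108, 0.00234 and -0.0124. The numbers were therefore not read as pairs. The sources used here do not say whether LAG-3-high and LAG-3-low libraries share animals. If they do, the main test between the sorted populations ignores that pairing. With a replicate block, 0 chemokines were called between the sorted populations, 2 for LAG-3-high against WT and 1 for LAG-3-low against WT. Between genotypes at P140 the block left 2 called, *Ccl9* and now *Ccl3* (adjusted p = 0.0935 by edgeR), while *Ccl2* was not (-1.40, adjusted p = 0.116).

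Precision was limited by 3 to 5 libraries a group and, for *Ccl5*, *Cxcl10* and *Cxcl2*, by libraries at or near 0 counts.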

Other observations

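*Cxcl2* was absent from most libraries and high in a few. Of the 26 microglia libraries, the third P140 LAG-3+/+ library held 1995 counts, the first LAG-3-low library 2080, the second LAG-3-low library 92, the third P140 LAG-3-/- library 38 and the second LAG-3-high library 12. The others held 0 counts. In the cord, no library held more than 2 counts.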
